A study of Mus musculus with 3 samples.

Results

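The 10 genes described here carry out antigen presentation by major histocompatibility complex (MHC) class II: H2-Aa, H2-Ab1 and H2-Eb1, Cd74, H2-DMa, H2-DMb1 and H2-DMb2, H2-Oa and H2-Ob, and Ciita. They were taken by name from the 32285 genes measured, whatever their values, and all 10 were found. Single splenocytes, depleted of T cells with CD3 microbeads, were sequenced as 3 libraries, and transcripts were counted by unique molecular identifiers (UMIs), short random tags added before amplification. The control library pooled male C57Bl/6 mice, sham-treated over 2 weeks from 10 weeks of age, and untreated female C57Bl/6 mice. The AngII library pooled C57Bl/6 mice infused with angiotensin II by pump for 2 weeks from 10 weeks of age, with and without 2-HOBA, a scavenger of isolevuglandins. The SLE123 library pooled mice of the lupus-prone strain B6.SLE123, untreated or given 2-HOBA for 6 weeks from 7 weeks of age. All mice were 12 to 14 weeks old, with 3 mice pooled per condition.

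Cells of each library were labelled with 6 hashtags, antibodies with a countable barcode, named C0301 to C0306. No hashtag was called in 282 control, 540 AngII and 486 SLE123 cells that were kept. Those cells enter the class levels and ratios but no hashtag range. No hashtag is named for a condition or a mouse in the sources used here, so the conditions within a library, 2-HOBA included, were not compared. Hashtag values are given only to show how far a level varies inside a library, and the same hashtag name in different libraries links nothing. With 1 library per group there is no replicate of any group and no test was possible, so no difference below carries a p-value. The intervals printed are 95% intervals for the counting of UMIs alone (exact Poisson for a level, exact conditional for a ratio, exact Clopper-Pearson for a share), and they do not cover differences between mice. After filtering, 15700 control, 14023 AngII and 16708 SLE123 cells remained, with median depths of 1759, 2724 and 1888 UMIs. The libraries shared 415 to 496 cell barcodes in each pair. Xist UMIs were found in 24.2% of control, 0% of AngII and 51.0% of SLE123 cells, and Y-linked UMIs in 12.7%, 34.7% and 0%. By these UMIs the AngII cells were male, the SLE123 cells female and the control cells of both sexes. The control cells were not split by sex, so in the ratios between libraries sex and library cannot be told apart.

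MHC class II molecules display peptides from endocytosed proteins to CD4+ T cells. In mice of this background the surface molecule I-A is the pair of chains encoded by H2-Aa and H2-Ab1, and H2-Eb1 encodes the beta chain of I-E, which does not reach the surface in C57Bl/6 mice because they lack a functional alpha chain. Cd74 is the invariant chain, which occupies the groove and guides new class II molecules to the endosome. H2-DM (H2-DMa with H2-DMb1 or H2-DMb2) removes the remnant of Cd74 and loads peptide, H2-DO (H2-Oa with H2-Ob) restrains H2-DM, and Ciita is a coactivator of class II gene transcription. Dendritic cells and B cells of the spleen are known for constitutive class II, whereas monocytes and macrophages acquire it on stimulation.

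The 8 H2 genes lie together on chromosome 17, between 34092340 and 34316674 in GENCODE vM21 on GRCm38, whereas Ciita lies on chromosome 16 (10480059 to 10528418, plus strand). RefSeq promoter windows (GRCm38.p6) were read for 7 of the 10 genes. No window of Cd74, H2-Ab1 or Ciita was read, so nothing is said of their promoters. Among the 7 genes read, 6, all but H2-DMa, held TGATTGG, the letters of the Y box bound by NF-Y. These windows are shown because the same block recurs in genes whose levels are compared below. Each is 30 bases long and is read 5′ to 3′ on the strand of its gene, with the capitals marking TGATTGG.
H2-Aa: gacgtcatcacaagagaattttcTGATTGG
H2-Eb1: atgatgctggactcctttgatgcTGATTGG
H2-Oa: cccattatctcagagaactgctcTGATTGG
H2-Ob: aaatgatgcaaagtcttcgctctTGATTGG
H2-DMb1: tgatgctaggctgattcactcagTGATTGG
H2-DMb2: tgatgctaggctaagtcacttagTGATTGG

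The window of H2-Aa is chr17:34287867-34287896 on the minus strand. The others, on the plus strand, are chr17:34305783-34305812 for H2-Eb1, chr17:34092311-34092340 for H2-Oa, chr17:34238823-34238852 for H2-Ob, chr17:34153105-34153134 for H2-DMb1 and chr17:34145134-34145163 for H2-DMb2. Each window ended 38 to 85 bases before the RefSeq start of its gene. In all 6 genes the letters AAC, as found in the X box bound by RFX, stood 23 to 26 bases upstream of the Y box, just outside the stretch shown. Across all 32851 windows of 300 bases, read on both strands, 7.82% held TGATTGG and 1.05% held AAC followed by TGATTGG after 20 to 30 bases. The letters were chosen after the windows had been read, and a match is a description of sequence, not evidence of binding. The windows of H2-DMb1 and H2-DMb2 were the same at 27 of 30 bases, against 10 to 18 of 30 for every other pair. The transcripts of these neighbouring genes (1404 and 1424 bases) were identical at 94.4% of 1255 aligned bases, with a longest shared run of 221 bases, so how reads were divided between this pair is not certain.

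Cell classes were set by counting detected marker genes per cell, and no class II gene was among the markers. The classes comprised B cells (12934, 11424 and 12457 cells in the control, AngII and SLE123 libraries), conventional dendritic cells of type 1 (cDC1; 32, 41 and 72), of type 2 (cDC2; 50, 41 and 62), migratory dendritic cells (25, 20 and 42), plasmacytoid dendritic cells (pDC; 40, 25 and 50), plasma cells (24, 40 and 322), classical monocytes (151, 51 and 155), nonclassical monocytes (199, 95 and 301) and red pulp macrophages (25, 34 and 63). In every class the median cell carried more markers of its own list than of any other, with the smallest margins in AngII plasma cells (5 against 4 B cell markers) and in SLE123 red pulp macrophages (4 against 3 markers of the list led by C1q genes). Levels are CPM, the UMIs of a gene over all UMIs summed across the cells of a class in a library, on the usual CPM scale (41916 CPM of Cd74 in control cDC1 is 4.19% of their UMIs). NK cells and neutrophils, which should lack class II, give the level that free RNA and misplaced cells produce: the 10 genes summed to 494, 692 and 664 CPM in NK cells and to 481, 306 and 490 CPM in neutrophils of the control, AngII and SLE123 libraries. Values are given below in that order of libraries.

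**Figure D1:**
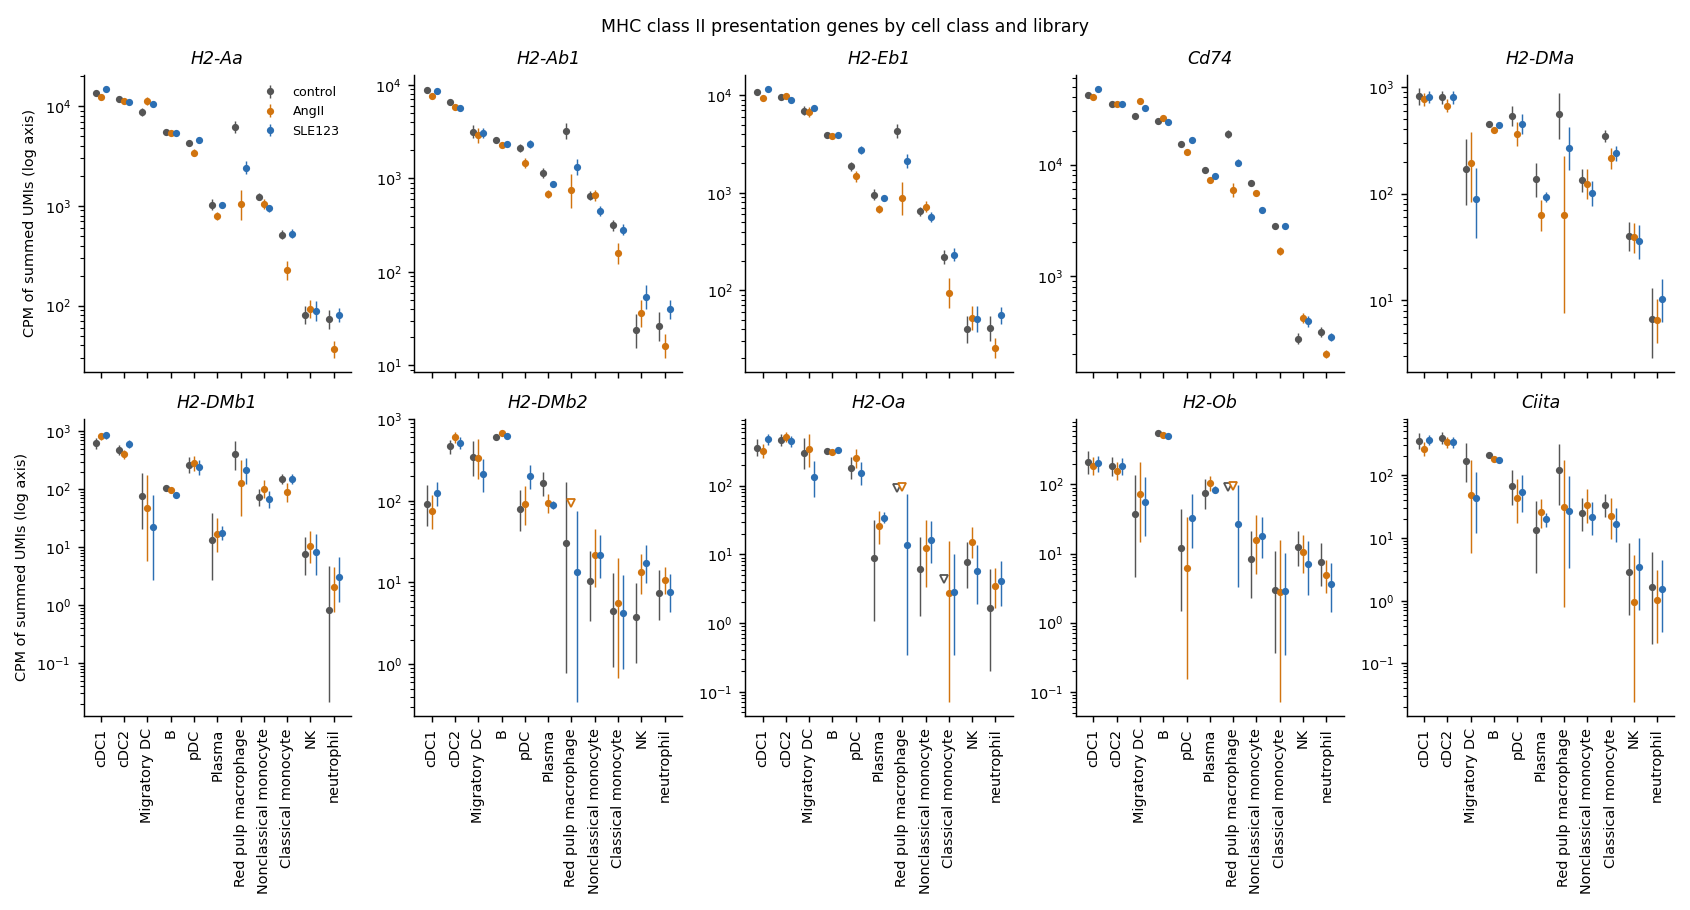
Level of each gene (CPM of summed UMIs, log axis) in 9 cell classes, NK cells and neutrophils, with 1 point per library, bars for the 95% counting interval and open triangles for the upper limit that a count of 0 allows. H2-Aa lies at 12240 to 14725 CPM in cDC1 and at 36.4 to 93.5 CPM in NK cells and neutrophils, while H2-DMb2 is higher in B cells (604 to 681 CPM) than in cDC1 (75.7 to 124 CPM).

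Among conventional dendritic cells, B cells, pDC, plasma cells and monocytes, H2-Aa, H2-Ab1, H2-Eb1 and Cd74 were highest in conventional dendritic cells. B cells came next, then pDC, then plasma cells and monocytes. For H2-Ab1, however, pDC (1475 to 2356 CPM) overlapped B cells (2272 to 2576 CPM). Migratory dendritic cells and red pulp macrophages, described below, are not placed in this order, with H2-Aa at 8697 to 11163 CPM and 1039 to 6231 CPM. H2-Aa stood at 13572, 12240 and 14725 CPM in cDC1, at 11871, 11277 and 10935 CPM in cDC2 and at 5536, 5402 and 5390 CPM in B cells. The ranges of the cDC1, cDC2 and B cell levels over libraries did not overlap, although cDC1 and cDC2 differed by as little as 1.09-fold within a library. pDC held 4283, 3426 and 4585 CPM of H2-Aa, plasma cells 1029, 790 and 1009 CPM, nonclassical monocytes 1240, 1044 and 945 CPM and classical monocytes 515, 226 and 528 CPM. Plasma cells and nonclassical monocytes overlapped for this gene, and both lay well above NK cells, at 81.1, 93.5 and 89.2 CPM.

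H2-Ab1, the partner chain of H2-Aa, was 3.32- to 3.75-fold higher in cDC1 than in B cells over the 3 libraries, compared with 2.27- to 2.73-fold for H2-Aa and 2.47- to 2.96-fold for H2-Eb1. For Cd74 the ratio was 1.54- to 1.99-fold. It made up the greatest part of the class II UMIs, with 41916, 40714 and 47812 CPM in cDC1 and 24552, 26370 and 24006 CPM in B cells. In plasma cells Cd74 remained at 9019, 7297 and 7880 CPM. It was thereby 2.72- to 3.61-fold below B cells, whereas H2-Aa was 5.34- to 6.83-fold and Ciita 7.03- to 15.6-fold below.

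The peptide loading genes were ordered differently. H2-DMa, the alpha chain of H2-DM, was at 453, 396 and 445 CPM in B cells and 537, 366 and 451 CPM in pDC, so that pDC held 0.923- to 1.18-fold the B cell level while their summed class II was 1.37- to 1.97-fold below it. Classical monocytes held 350, 215 and 239 CPM of H2-DMa, 1.29- to 1.86-fold below B cells, although their summed class II was 8.86- to 16.0-fold below. Nonclassical monocytes had more class II in sum than classical monocytes, by 1.43- to 3.31-fold, yet 1.73- to 2.61-fold less H2-DMa. NK cells were at 40.1, 39.1 and 35.9 CPM of H2-DMa, so both monocyte classes lay above that background.

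Migratory dendritic cells held the H2-Aa and H2-Eb1 chains at near the cDC2 level but less H2-Ab1, and far less of H2-DMa and H2-DMb1. Their H2-Aa, at 8697, 11163 and 10530 CPM, was 1.01- to 1.36-fold below cDC2, and their H2-Eb1 was 1.20- to 1.45-fold below. H2-Ab1, the partner chain of H2-Aa, lay at 2917 to 3176 CPM over the libraries, against 5684 to 6619 CPM in cDC2. H2-Ob lay at 37.8 to 72.3 CPM against 158 to 185 CPM, on 10 UMIs in all. H2-DMa was 3.46- to 9.05-fold below cDC2 and H2-DMb1 6.29- to 27.0-fold below, the latter on 4, 2 and 2 UMIs. Ciita stood at 170, 48.2 and 44.2 CPM against 397, 341 and 336 CPM in cDC2, on 9, 2 and 4 UMIs. The direction was the same in the 3 libraries for each of these genes, with 20 to 42 cells behind it.

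The 2 beta chain genes of H2-DM made up different proportions of the UMIs in different classes. In B cells H2-DMb2 gave 85.1%, 87.3% and 88.4% of the UMIs of both genes (intervals within 84.6% to 88.9%). In cDC1 it gave 12.9% (7.04% to 21.0%), 8.44% (5.16% to 12.9%) and 12.7% (8.99% to 17.2%). Its share in cDC2 lay between these, at 49.3%, 59.7% and 46.1%. Classical monocytes were at 2.86%, 5.88% and 2.73%, on 3, 2 and 3 UMIs of H2-DMb2. Red pulp macrophages had 1, 0 and 1 UMIs of H2-DMb2 beside 13, 4 and 16 of H2-DMb1, and nonclassical monocytes 12.2%, 17.5% and 24.5% of H2-DMb2. The nonclassical shares rested on 24 UMIs of H2-DMb2 in all. Its level there was 10.3 to 21.7 CPM, near the 3.81 to 17.4 CPM of NK cells, and the part of background RNA was not tested.

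Inside libraries, every B cell hashtag had a higher share than every cDC1 hashtag with a value. Among B cells the hashtags ranged from 82.6% to 86.4% in control, 86.1% to 88.5% in AngII and 87.9% to 89.5% in SLE123, and the highest cDC1 hashtag reached 22.2%, 15.2% and 26.7%. Hashtags of cDC2 started at 16.7%, 33.3% and 17.1%, and reached 62.5%, 73.3% and 69.2%, so the cDC2 share varied widely at these counts. Follicular, marginal zone, germinal centre and B1 cells all lay between 84.0% and 90.7%, plasma cells between 83.5% and 92.5%, and migratory dendritic cells, on 16 to 22 UMIs, between 81.8% and 90.5%. In pDC the share was 23.2%, 24.6% and 45.0%. Because the transcripts are so alike, these are shares of assigned UMIs. The shares also depended on how classes were set. With classes from clusters, 9 of 21 shares moved outside their counting interval. With stricter gates it was 3 of 23, and with several-hashtag barcodes kept 0 of 27. B cells made up 74.6% to 82.4% of the cells of a library, and in neutrophils, where only background is expected, H2-DMb2 gave 9 of 10, 31 of 37 and 15 of 21 UMIs.

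**Figure D2:**
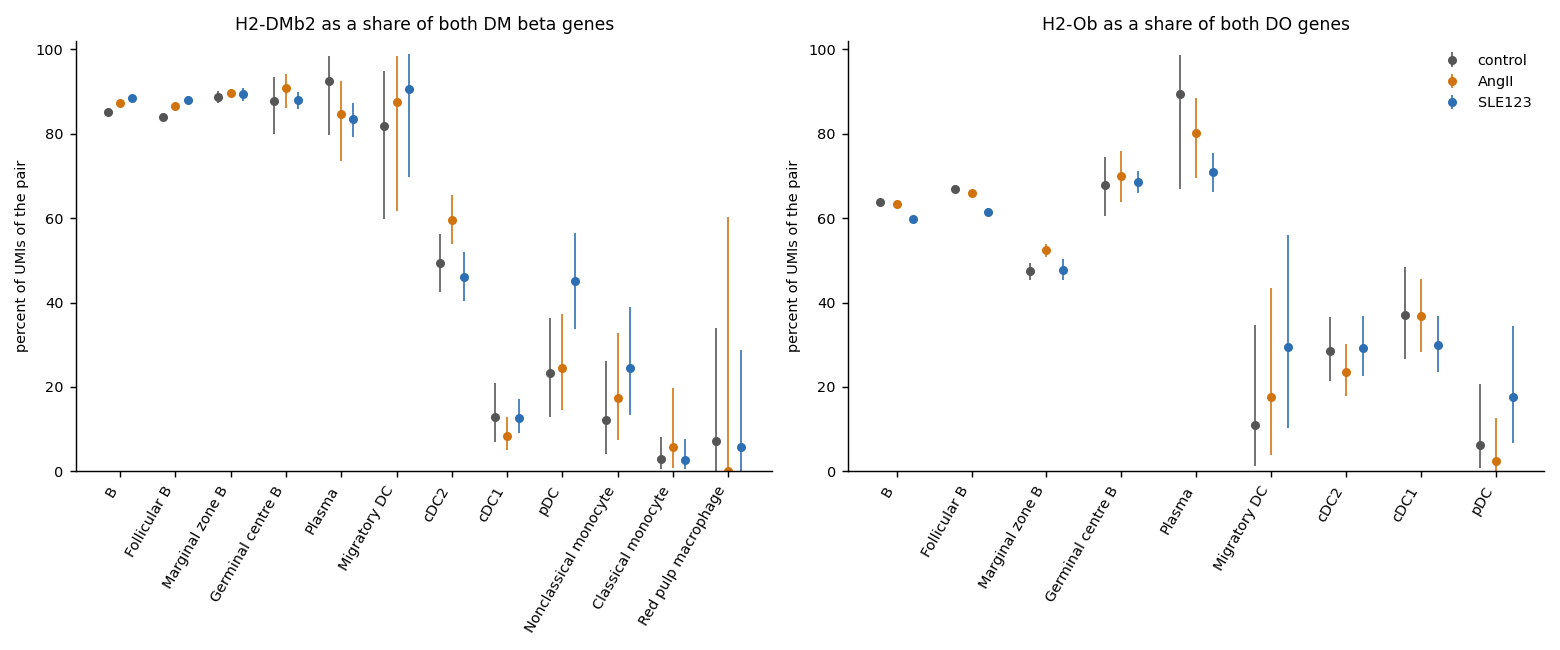
Left, UMIs of H2-DMb2 as a percent of H2-DMb1 and H2-DMb2 together; right, UMIs of H2-Ob as a percent of H2-Oa and H2-Ob together, by cell class and library with 95% Clopper-Pearson intervals. B cell classes lie at 84.0% or more on the left, while cDC1 lie at 12.9% or less and classical monocytes at 5.88% or less.

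H2-DO genes were found mainly in B cells and dendritic cells. H2-Ob stood at 562, 526 and 494 CPM in B cells and at 211, 187 and 201 CPM in cDC1, 2.45- to 2.81-fold lower, whereas H2-Oa was 1.06- to 1.42-fold higher in cDC1 than in B cells. H2-Ob thus gave 63.9%, 63.3% and 59.7% of the H2-DO UMIs in B cells and 28.6%, 23.6% and 29.3% in cDC2. pDC held H2-Oa at 183, 250 and 154 CPM but only 2, 1 and 6 UMIs of H2-Ob. Classical monocytes had 0, 1 and 2 UMIs of H2-Oa and 2, 1 and 2 of H2-Ob, at or below the NK cell level. H2-DO genes together gave 0.583%, 1.77% and 1.41% of the H2-DO and H2-DM UMIs in classical monocytes, 23.4% to 28.7% in cDC1 and cDC2, and 41.4% to 43.0% in B cells.

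Ciita followed H2-Aa, H2-Ab1 and H2-Eb1 only in part. It was highest in cDC2 (397, 341 and 336 CPM) and cDC1 (358, 267 and 367 CPM), which overlapped, and stood at 207, 180 and 179 CPM in B cells. In pDC it was at 67.1, 42.7 and 55.0 CPM, 3.08- to 4.22-fold below B cells, although the sum of the 10 genes there was 1.37- to 1.97-fold below. Plasma cells held 13.2, 25.6 and 19.8 CPM, classical monocytes 34.1, 22.3 and 17.0 CPM and nonclassical monocytes 24.8, 34.2 and 21.7 CPM of Ciita, ranges that overlapped. NK cells were at 2.86, 0.954 and 3.47 CPM.

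The B cell subsets compared held less class II in sum than follicular B cells. Marginal zone cells (913, 1048 and 680 cells) held 0.755- to 0.806-fold the follicular sum of the 10 genes, germinal centre cells (49, 64 and 483) 0.567- to 0.727-fold and B1 cells (35, 49 and 231) 0.556- to 0.727-fold. Marginal zone cells held 0.483- to 0.570-fold the follicular H2-Ob but 0.875- to 1.09-fold the H2-Oa. Germinal centre cells held 0.328- to 0.594-fold the follicular H2-Oa and 0.449- to 0.659-fold the H2-Ob, while their H2-DMa was 0.783- to 1.09-fold. The H2-DO part of H2-DO and H2-DM was therefore 33.9% and 37.1% in germinal centre cells of the SLE123 and AngII libraries and 44.6% and 43.0% in their follicular cells, but 45.3% and 44.6% in the control library, where 49 germinal centre cells were found.

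Class II was spread unevenly over single cells of some classes. The 10 genes made up a median of 4.08%, 4.16% and 4.12% of a B cell's UMIs, with 10th to 90th percentiles of 2.55% to 5.53% in the control library. The cDC1 medians were 7.62%, 7.51% and 8.43%. Migratory dendritic cells spread widest, from 0.298% to 9.45% between those percentiles in the control library, 0.509% to 11.4% in AngII and 0.454% to 10.6% in SLE123. In classical monocytes the median was only 0.0855%, 0.0687% and 0.0709%, and the 90th percentile was 1.72%, 0.322% and 1.70%. The upper tail of these monocytes was thus shorter in AngII than in the other libraries, and in the summed levels fewer such cells and less RNA per cell cannot be told apart.

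**Figure D3:**
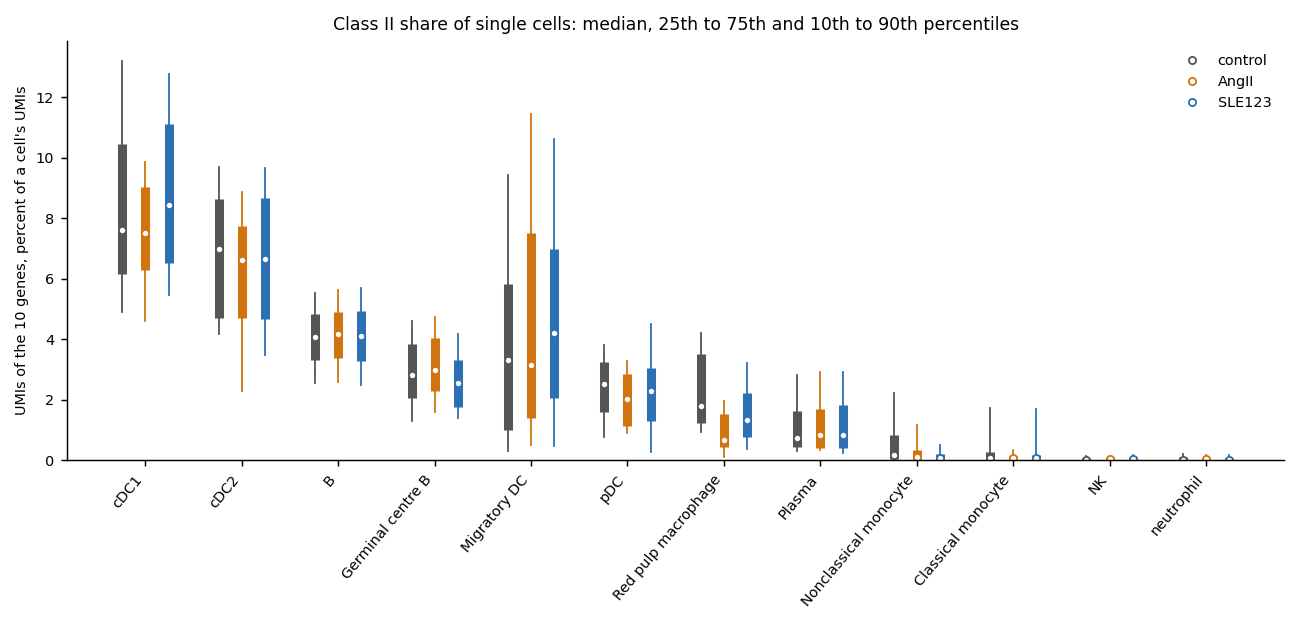
Percent of a cell's UMIs given by the 10 genes, by class and library; white dots mark medians, thick bars the 25th to 75th and thin lines the 10th to 90th percentile of cells. Thin lines of migratory dendritic cells span 0.298% to 9.45% in the control library, while the classical monocyte medians lie at 0.0687% to 0.0855%.

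In B cells the class II level was nearly the same in the 3 libraries. The 10 genes summed to 38839, 40008 and 37737 CPM, a log2 ratio to control of 0.04 (0.04 to 0.05) for AngII and -0.04 (-0.05 to -0.04) for SLE123, and the sign of each turned in some settings listed in the closing section. No member reached a 1.5-fold ratio in either library, against 16.6% of 11324 genes for SLE123 and 6.23% of 11320 genes for AngII. The median log2 ratio of the members was -0.04 for SLE123 and -0.08 for AngII, and that of all genes was -0.05 and 0.06.

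**Figure D4:**
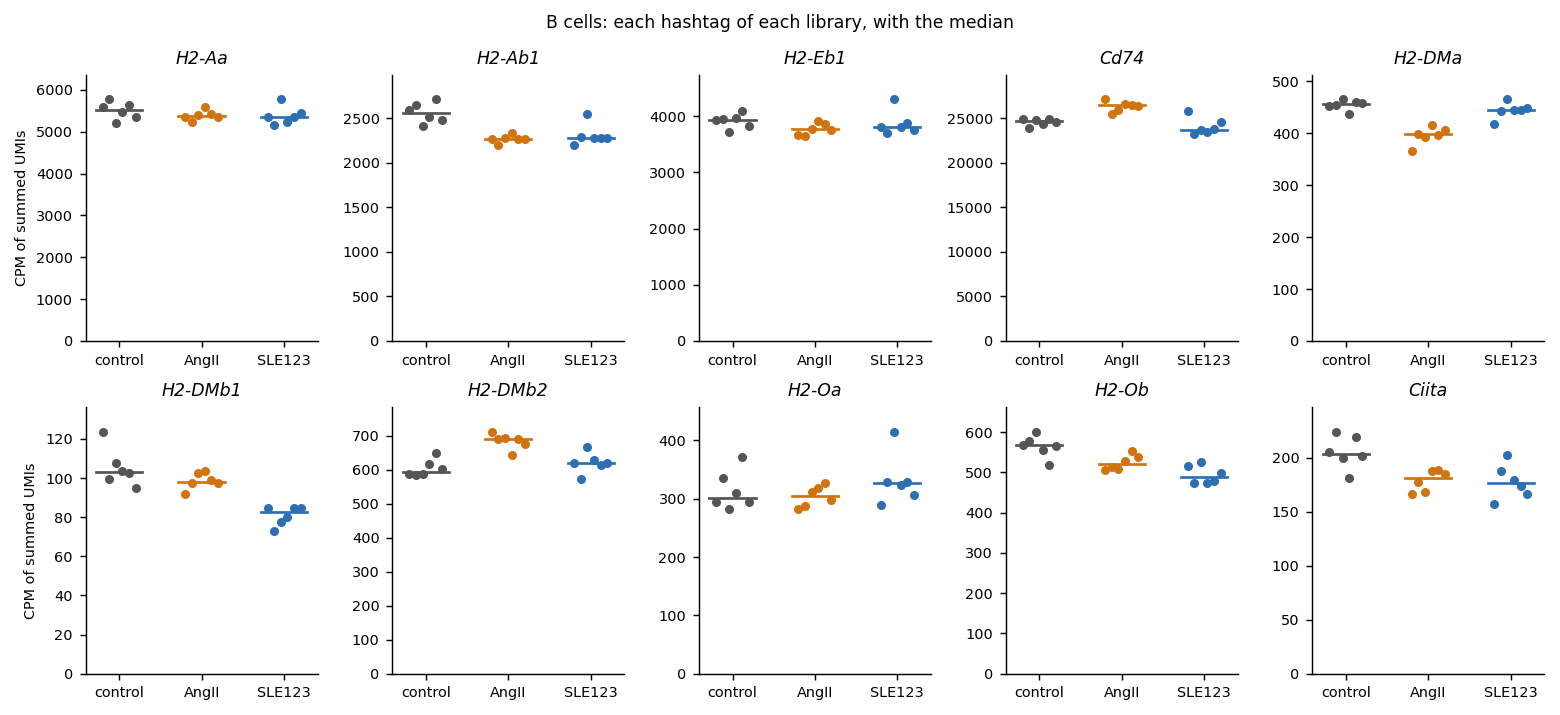
Level of each gene in B cells (CPM of summed UMIs, axes from 0), with 1 point per hashtag and a line at the median of the 6 hashtags of a library. H2-DMb1 of the SLE123 library lies below every control hashtag, and in the AngII library H2-Ab1 and H2-DMa lie below and Cd74 above every control hashtag. Hashtag ranges were apart for 37.5% (SLE123) and 30.8% (AngII) of all genes with at least 50 CPM.

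Small shifts of single chains set hashtag ranges apart from control, but no more often than over all genes compared. H2-DMb1 was at 94.95, 103 and 124 CPM (lowest, median and highest hashtag) in control B cells, 92.1, 98.2 and 104 CPM in AngII and 73.2, 82.4 and 85.0 CPM in SLE123. The SLE123 hashtags all lay below the control hashtags, with a log2 ratio of -0.39 (-0.46 to -0.31), and H2-DMb1 was the 1 member of 10 set apart in that comparison. For comparison, the hashtag ranges were apart for 37.5% of the 2770 genes with at least 50 CPM, so a share of 1 in 10 members lay below the background. In follicular B cells alone, the H2-DMb1 ranges overlapped, at 88.3 to 115 CPM in SLE123 and 105 to 133 CPM in control. H2-DMb2 overlapped over all B cells, but its follicular ranges were apart, at 697 to 740 CPM in SLE123 and 609 to 687 CPM in control. The share of all genes set apart in follicular B cells was not taken.

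For AngII, 3 of 10 members had hashtag ranges apart from control, near the background of 30.8% of 2859 genes. H2-Ab1 hashtags ran from 2204 to 2332 CPM with a median of 2271 CPM, below the control range of 2416 to 2719 CPM with a median of 2554 CPM (log2 ratio -0.18). H2-DMa ran from 366 to 415 CPM with a median of 398 CPM, below 436 to 466 CPM with a median of 457 CPM (log2 ratio -0.19). Cd74 ran from 25514 to 27172 CPM with a median of 26450 CPM, above 23839 to 24925 CPM with a median of 24676 CPM (log2 ratio 0.10). By subset, Cd74 overlapped in follicular B cells (27289 to 28995 CPM against 25036 to 27756 CPM) but stayed above control in marginal zone B cells (21930 to 22817 CPM against 19949 to 20734 CPM). H2-Ab1 and H2-DMa overlapped in marginal zone B cells but stayed below control in follicular B cells. There H2-Ab1 ran from 2308 to 2459 CPM against 2581 to 3009 CPM, and H2-DMa from 371 to 444 CPM against 452 to 514 CPM. The share of all genes with ranges apart was not taken within subsets.

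Conventional dendritic cells showed no member past 1.5-fold. In cDC1 this was 0 of 9 members in each comparison, against 19.5% of 985 genes for SLE123 and 17.3% of 880 genes for AngII. In cDC2 it was 0 of 10, against 17.9% of 1433 and 17.4% of 1504 genes. The sum in cDC1 was 77615, 72266 and 85518 CPM and in cDC2 65600, 64594 and 63370 CPM. In migratory dendritic cells only 4 members had enough UMIs, and 0 passed 1.5-fold, against 28.9% of 370 genes for SLE123 and 29.4% of 252 genes for AngII.

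In pDC the sum of the 10 genes was 24681, 20318 and 27567 CPM. No member of 7 passed 1.5-fold in either library, against 15.6% of 1016 genes for SLE123 and 12.7% of 946 genes for AngII. The widest ratio in SLE123 was that of H2-Eb1, at 2730 against 1867 CPM (log2 0.55, 0.34 to 0.76). In AngII H2-DMa stood at 366 against 537 CPM (log2 -0.55, -1.05 to -0.06).

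Plasma cells numbered 24 in the control library, and their ratios rest on few UMIs. For SLE123, 2 of 10 members passed 1.5-fold, against 33.6% of 4617 genes. H2-DMb2 was at 89.0 against 163 CPM (log2 -0.88, -1.37 to -0.34) and H2-Oa at 34.3 against 8.83 CPM, the latter on 2 control UMIs (log2 1.96, 0.07 to 5.02). For AngII it was 3 of 7 members, against 33.5% of 1224 genes: H2-Ab1 (log2 -0.74), H2-DMa (-1.12) and H2-DMb2 (-0.80), all lower. Control hashtag C0302 held 31 of the 37 control UMIs of H2-DMb2, and without it the ratio of this gene turned to 0.21 for SLE123 and 0.29 for AngII. The median plasma cell carried 5 plasma cell and 4 B cell markers in AngII, and the part of B cell RNA in these ratios was not tested. Only 1 control hashtag held 10 or more plasma cells, so the spread within the control library was not available for these cells.

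Classical monocytes of the AngII library held less of each class II gene that could be compared. All 6 members tested were past 1.5-fold and lower, against 13.6% of 2970 genes in either direction. H2-Aa stood at 226 against 515 CPM (log2 -1.19, -1.56 to -0.84) and H2-Eb1 at 94.7 against 218 CPM (log2 -1.20, -1.79 to -0.66). H2-Ab1 (-0.99), H2-DMb1 (-0.76), Cd74 (-0.72) and H2-DMa (-0.71) were also lower. The median member ratio was -0.87 and that of all genes -0.02. The AngII value came from 51 cells, and the 2 AngII hashtags with 10 or more cells lay at 3123 and 3683 CPM for the sum of the 10 genes, inside the range of 5 control hashtags, from 2129 to 9407 CPM with a median of 2963 CPM. The level of all 51 AngII cells, 2499 CPM, also lay inside that range. Both AngII hashtags, of 16 and 13 cells, lay above 2499 CPM. The remaining AngII cells thus held less class II, and were too few per hashtag to compare. Whether the difference is larger than the spread inside the control library was therefore not settled. Without control hashtag C0305 the log2 ratio of the sum went from -0.81 to -0.52.

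For SLE123 the classical monocyte sum was 4259 against 4372 CPM, and 0 of 6 members passed 1.5-fold, against 20.1% of 3721 genes. The 5 SLE123 hashtags ran from 2888 to 5977 CPM, with a median of 3993 CPM, within the control range. The log2 ratio of the sum, -0.038, was 0.73 with the cell limits read as UMIs and -0.53 with stricter gates, so its direction was not settled.

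In nonclassical monocytes the sum was 9612, 8273 and 6096 CPM. For SLE123, 1 of 6 members, Cd74, was past 1.5-fold, at 3888 against 6817 CPM (log2 -0.81, -0.89 to -0.73), against 14.1% of 3110 genes. For AngII it was 0 of 6, against 12.4% of 2516 genes. These ratios turned on 1 control hashtag: C0305, with 53 cells, stood at 17354 CPM and gave 2521 of the 4659 control UMIs. Without it, the log2 ratio of the sum went from -0.66 to -0.05 for SLE123 and from -0.22 to 0.39 for AngII, which stood at -1.50 with the cell limits read as UMIs. Control hashtags ran from 4249 to 17354 CPM, AngII hashtags from 3684 to 19196 CPM and SLE123 hashtags from 2522 to 14424 CPM, so the libraries overlapped over most of their ranges.

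The widest ratios of the summed level were those of red pulp macrophages, the iron-recycling macrophages of the spleen. H2-Aa stood at 6231, 1039 and 2422 CPM (203, 33 and 179 UMIs) and Cd74 at 18817, 5951 and 10376 CPM. All 4 members tested were lower in SLE123 and in AngII, against 24.3% of 300 and 28.2% of 181 genes past 1.5-fold in either direction. For AngII the log2 ratios were -2.58 for H2-Aa, -2.30 for H2-Eb1, -2.09 for H2-Ab1 and -1.66 for Cd74, and for SLE123 they were -1.36, -1.03, -1.28 and -0.86. The cells were few and shallow, with medians of 827, 749 and 888 UMIs in 25, 34 and 63 cells, and too few per hashtag to show a spread. Leaving out control hashtag C0304 took the log2 ratio of the sum from -1.003 to -0.61 for SLE123 and from -1.93 to -1.53 for AngII, and stricter gates took the latter to -1.32. H2-Ob and H2-Oa, high in B cells, had 0 UMIs in these cells of the control and AngII libraries, which allows levels of up to 92.1 and 94.5 CPM (3 counts). The part of B cell RNA, depth or cell choice in these ratios was not tested.

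**Figure D5:**
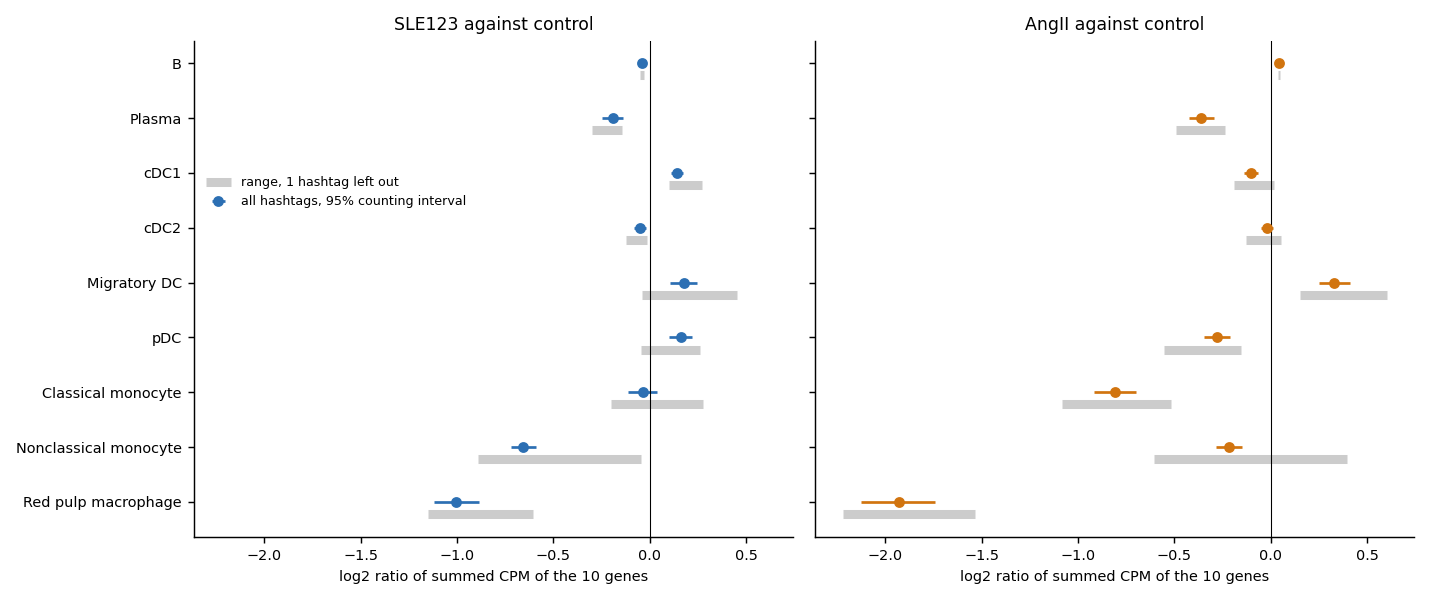
Log2 ratio of the summed level of the 10 genes in each class, for SLE123 (left) and AngII (right) against control, with 95% counting intervals, and grey bars for the range when 1 hashtag is left out. The grey bars cross 0 for migratory dendritic cells, pDC and classical monocytes in SLE123 and for cDC1, cDC2 and nonclassical monocytes in AngII, and run from -2.22 to -1.53 for red pulp macrophages in AngII.

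The minimum of 3 markers among C1qa, C1qb, C1qc, Cxcl14 and Fcgr4 was met exactly by 18, 29 and 104 cells. A further 5, 9 and 157 cells carried more. After red pulp macrophages, cells with B cell markers and cells of other gates were taken out, 162 remained in the SLE123 library. Only 3 remained in control and 5 in AngII. The median of the 162 SLE123 cells carried 0 red pulp macrophage markers. In these cells H2-Aa was at 1104 CPM, Cd74 at 2767 CPM and Ciita at 24.3 CPM, and the sum of the 10 genes, 5693 CPM, was 0.934-fold that of nonclassical monocytes of that library. Over single cells the median was 0.0886% of UMIs and the 75th percentile 0.255%, below the 0.569% of the summed UMIs, while the NK cell median was 0.0517%. H2-DMb2 gave 19.0% (8.60% to 34.1%) of both beta chain genes, on 8 UMIs at 21.6 CPM.

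Of 20 further genes of the pathway that were measured (promoter assembly, processing, turnover, costimulation and other class II loci), 4 of 20 passed 1.5-fold in B cells of the SLE123 library, 3 higher and 1 lower, against 16.6% of all genes tested there, and 0 of 19 in the AngII library, against 6.23%. Ifi30, the thiol reductase that unfolds antigens in the endosome, was at 575, 544 and 1572 CPM (log2 ratio for SLE123 1.45, 1.42 to 1.48). Its hashtags ran from 522 to 619 CPM in control, 495 to 573 CPM in AngII and 1379 to 1769 CPM in SLE123, and the SLE123 range did not overlap the others. The other 3 were at low levels: March8, a ubiquitin ligase, at 0.514 and 1.51 CPM, Cd80, a costimulatory ligand, at 1.76 and 3.98 CPM, and the protease gene Ctsl at 5.03 and 2.90 CPM in control and SLE123.

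Ifi30 was also higher in SLE123 plasma cells (192 against 75.05 CPM, log2 1.35) and pDC (1442 against 738 CPM, log2 0.97). In cDC1 it was at 646 against 709 CPM, in cDC2 at 2105 against 2084 CPM, in migratory dendritic cells at 3657 against 3857 CPM and in classical monocytes at 1407 against 1305 CPM, none past 1.5-fold. Whether the ratio differs between classes was not tested, because each is 1 library against another. In red pulp macrophages of SLE123, where the 4 class II genes were lower, the lysosomal proteases Ctsb (log2 0.74), Ctsd (0.72) and Lgmn (0.80) were higher and Ifi30 lower (-0.68, -1.40 to 0.06), 4 of 5 tested, against 24.3% of 300 genes. In pDC, Ctsl stood at 1934, 1859 and 1305 CPM, compared with 5.03, 4.72 and 2.90 CPM in B cells, while Ctss, which trims Cd74 in B cells and dendritic cells, was at 854, 817 and 1079 CPM in pDC and 551, 560 and 475 CPM in B cells.

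In the remaining classes few pathway genes could be tested, and each count stands beside the share of all genes past 1.5-fold. For SLE123 the counts were 5 of 10 in plasma cells (33.6% of all genes), 2 of 10 in classical monocytes (20.1%), 2 of 5 in cDC2 (17.9%), 1 of 5 in cDC1 (19.5%), 1 of 4 in pDC (15.6%), 0 of 3 in migratory dendritic cells (28.9%) and 0 of 7 in nonclassical monocytes (14.1%). For AngII they were 1 of 4 in plasma cells (33.5%), 1 of 5 in cDC2 (17.4%), 1 of 7 in nonclassical monocytes (12.4%), 0 of 5 in cDC1 (17.3%), 0 of 4 in pDC (12.7%), 0 of 2 in migratory dendritic cells (29.4%), 0 of 8 in classical monocytes (13.6%) and 0 of 3 in red pulp macrophages (28.2%). With so few genes tested, nothing is read from these counts.

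Subunits of the factors that bind the X box and Y box were at low levels. Rfx5, a subunit of RFX, was at 29.1, 28.3 and 21.5 CPM in B cells and 7.42, 0 and 5.66 CPM in classical monocytes, on 5, 0 and 4 UMIs. Nfya, a subunit of NF-Y, was at 36.3, 35.0 and 29.6 CPM in B cells and 19.1, 22.9 and 26.6 CPM in NK cells.

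Across 38 pairs of a class and a library, the class II chains and Cd74 varied together, with Pearson correlations of log2(CPM + 10) of 0.969 to 0.990 among H2-Aa, H2-Ab1, H2-Eb1 and Cd74. H2-DMb1 and H2-DMb2 correlated at only 0.318. Among 7736 other genes, the nearest in pattern was Fgd2 for H2-Aa (0.824), H2-Ab1 (0.813), H2-Eb1 (0.794) and Ciita (0.841). It was Plekho1 for H2-DMa (0.910), H2-DMb1 (0.895) and Cd74 (0.805), Rab30 for H2-DMb2 (0.874) and H2-Ob (0.847), and Kynu for H2-Oa (0.874). The points share libraries and depth, so these are descriptions of pattern.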

How the data were processed

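Single-cell RNA of T cell-depleted splenocytes was measured in 3 libraries. The authors made UMI counts per gene, hashtag and barcode with Cell Ranger 6.0.0 (build mm10, per the submitters' processing notes) and deposited the counts without normalization, 44146350, 59043555 and 63516694 gene UMIs in the control, AngII and SLE123 libraries. Barcodes with 200 to 3500 genes and under 15% mitochondrial UMIs were kept. Barcodes positive for several hashtags were removed, and no other doublet call was made. A class needed 3 or 4 detected markers. Red pulp macrophages took precedence over the C1q gate, that gate over nonclassical monocytes, and pDC over cDC2. Cells that met both monocyte gates (41, 33 and 25 in control, AngII and SLE123) were kept apart. Other cells that met several gates were left out. Outside B and plasma cells, cells with 3 or more B cell markers (122, 152 and 179) were also left out. A ratio needed 20 cells per library and 50 UMIs over both, and 1.5-fold was the limit for counts of genes. All 10 genes are named, and further genes only from the pathway list or as the nearest non-member by correlation, among genes reaching 50 CPM. The members and lists were chosen with earlier results of these data known. Alternatives were stricter gates, Leiden clusters (scanpy 1.11.5, 2000 variable genes, 30 components, 20 neighbours, resolution 3), thinning to 1000 UMIs, TMM scaling (edgeR 4.0.16, R 4.3.3), limits read as UMIs, and each hashtag left out. B cell subsets, and the beta chain share in other settings, were added after seeing the data. Python 3.11.15, scipy 1.17.1 and Biopython 1.88 were used, and the ratio code was tested on simulated data.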

Additional observations from a re-analysis of the deposited data

How the results depend on the processing

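No paired analysis was possible because each group was 1 library and its hashtags are not matched between libraries. Each value is the log2 ratio to control of the summed level of the 10 genes where it moved, and the cause was not tested. The B cell subsets were added after seeing the data. In B cells of SLE123, -0.042 became 0.034 with limits read as UMIs, -0.049 with stricter gates, -0.053 with clusters, 0.00054 when thinned, -0.047 without immunoglobulin and mitochondrial genes, -0.014 with TMM, 0.050 in follicular B cells, -0.012 in marginal zone B cells, -0.069 in germinal centre B cells, 0.0066 in other B cells and 0.030 with the control mix of subsets. In B cells of AngII, 0.043 became 0.089 with limits read as UMIs, 0.048 with stricter gates, 0.030 when thinned, 0.038 without immunoglobulin and mitochondrial genes, -0.0060 with TMM, 0.037 in follicular B cells, 0.069 in marginal zone B cells, 0.28 in germinal centre B cells, 0.032 in other B cells and 0.038 with the control mix of subsets. In plasma cells of SLE123, -0.19 became -0.35 with several-hashtag barcodes kept, -0.34 with clusters, 0.033 when thinned, -0.11 without immunoglobulin and mitochondrial genes and 0.028 with TMM. In plasma cells of AngII, -0.36 became -0.57 with several-hashtag barcodes kept, -0.43 with clusters, 0.049 when thinned, -0.17 without immunoglobulin and mitochondrial genes and -0.15 with TMM. In cDC1 of SLE123, 0.14 became 0.029 when thinned and 0.18 with TMM. In cDC1 of AngII, -0.10 became -0.048 with clusters, -0.19 when thinned and -0.027 with TMM. In cDC2 of SLE123, -0.050 became -0.095 with stricter gates. In cDC2 of AngII, -0.022 became -0.058 with stricter gates, 0.080 with clusters and -0.17 when thinned. In migratory dendritic cells of SLE123, 0.18 became 0.026 with several-hashtag barcodes kept, 0.30 when thinned and 0.47 with TMM. In migratory dendritic cells of AngII, 0.33 became 0.24 with several-hashtag barcodes kept and 0.54 with TMM. In pDC of SLE123, 0.16 became 0.077 with stricter gates, -0.21 with clusters and 0.061 when thinned. In pDC of AngII, -0.28 became -0.38 with clusters. In classical monocytes of SLE123, -0.038 became 0.73 with limits read as UMIs, 0.043 with several-hashtag barcodes kept, -0.53 with stricter gates and 0.19 when thinned. In classical monocytes of AngII, -0.81 became -1.37 with stricter gates and -0.27 with clusters. In nonclassical monocytes of SLE123, -0.66 became -1.13 with limits read as UMIs, -1.08 with stricter gates, -0.24 with clusters and -1.004 when thinned. In nonclassical monocytes of AngII, -0.22 became -1.50 with limits read as UMIs, -0.30 with stricter gates, -0.72 with clusters, -0.47 when thinned and -0.29 with TMM. In red pulp macrophages of SLE123, -1.003 became -0.68 with limits read as UMIs, -0.48 with stricter gates and -0.72 with TMM. In red pulp macrophages of AngII, -1.93 became -1.48 with limits read as UMIs and -1.32 with stricter gates. With each hashtag left out in turn, the range was -0.051 to -0.031 in B cells of SLE123, 0.038 to 0.050 in B cells of AngII, -0.30 to -0.14 in plasma cells of SLE123, -0.49 to -0.24 in plasma cells of AngII, 0.098 to 0.27 in cDC1 of SLE123, -0.19 to 0.018 in cDC1 of AngII, -0.12 to -0.015 in cDC2 of SLE123, -0.13 to 0.055 in cDC2 of AngII, -0.039 to 0.45 in migratory dendritic cells of SLE123, 0.15 to 0.60 in migratory dendritic cells of AngII, -0.048 to 0.26 in pDC of SLE123, -0.55 to -0.15 in pDC of AngII, -0.20 to 0.28 in classical monocytes of SLE123, -1.08 to -0.52 in classical monocytes of AngII, -0.89 to -0.047 in nonclassical monocytes of SLE123, -0.61 to 0.39 in nonclassical monocytes of AngII, -1.15 to -0.61 in red pulp macrophages of SLE123 and -2.22 to -1.53 in red pulp macrophages of AngII. The sign turned without control C0305 for cDC1 and nonclassical monocytes of AngII, without AngII C0305 for cDC2 of AngII, and without SLE123 C0304, C0306 or C0303 for migratory dendritic cells, pDC and classical monocytes of SLE123, respectively. Only the hashtag behind the end of each range is named there. Others can turn the sign too, as control C0305 and control C0306 did for classical monocytes of SLE123. Among single genes, thinning took the SLE123 B cell ratios of H2-Aa, H2-Eb1 and Cd74 to 0.00049, 0.0097 and 0.018. With 1 hashtag left out, that of H2-Oa ran from -0.0068 to 0.12 and those of H2-DMb2 in plasma cells from -1.02 to 0.21 (SLE123) and -1.18 to 0.29 (AngII). Clusters gave no value for migratory dendritic cells or red pulp macrophages, and classes with fewer than 20 cells gave none under a setting.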
